A study of Avicennia schaueriana with 18 samples.

Results

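Flowers were compared with leaves of the same trees in a subtropical population of *Avicennia schaueriana*, a mangrove tree of the Atlantic coast of South America. The comparison used the flower and leaf libraries of trees St1, St2 and St4, which were 6 of the 18 RNA-Seq libraries of the series, and all 49490 transcripts of the assembled transcriptome. By the labels, each tree gave 1 flower library and 1 leaf library, so that flower and leaf were paired within the tree. The 3 trees were adult, flowering and growing wild, and no treatment was applied. They were sampled within 3 days, at 19 °C and 84% relative humidity for St1, 18.3 °C and 86% for St2, and 20.9 °C and 82% for St4. Stems of the same 3 trees, and flowers and leaves of the equatorial trees Eq4, Eq5 and Eq6, sampled at 28.3 to 30.1 °C, were used only for comparison. The stage of the flowers and the organs taken with them are not given in the sources used here. Each tree carried the same sequencing index in all of its tissues (6 of 6 trees), so that flower and leaf of a tree must have been sequenced in different pools. The pool of each library is not given in the sources used here, and its part in the differences below was not tested.

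A leaf blade is built around chloroplast-rich cells, in which the photosystems of the thylakoid membrane capture light and the plastid isoprenoid pathway supplies the side chains of chlorophyll and the carotenoids. A flower is a short shoot whose organs are mostly not green. Its petals and anthers are known as sites of flavonoid synthesis, its pedicels and filaments carry vascular strands whose vessel walls hold cellulose, xylan and lignin, and its expanding organs lay down primary wall. Gene names below come from *Arabidopsis thaliana*, whose genes the study's supplementary tables pair with 129 of the transcripts, and the roles stated are known from that species.

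No genome was used, and the sequences at hand for these transcripts were the primers designed by the study for real-time PCR. They are shown for 4 transcripts on which the results below turn, a photosystem I subunit (PSAO, As_26420), a repair factor of photosystem II (PSB27, As_15863), a laccase of lignin polymerisation (LAC4, As_15146) and an aquaporin (PIP1;4, As_44068), because each pair marks the stretch of the transcript that can be amplified. All are written 5′ to 3′.
PSAO left: aacagtccaaggtgccacag
PSAO right: aagcattccggccatcaacg
PSB27 left: tggccagaaaccgcattaag
PSB27 right: tgatccgaacattgccacag
LAC4 left: acgcaacacctgtaacaacc
LAC4 right: tggcaaacatcagtgagtggtc
PIP1;4 left: agtgccttggtgccatttgtg
PIP1;4 right: acaaaggtgcccacgatttcag

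The flower libraries held 9694583, 6971996 and 11172632 uniquely mapped reads in St1, St2 and St4, against 9435666, 11603596 and 8749713 in the leaf libraries. At an equal depth of 6971996 reads, flowers showed 44056 ± 522 transcripts with at least 1 read and leaves 41534 ± 624 (SD, n = 3 each), and the groups did not overlap. Non-coding transcripts took 6.75% ± 1.24 of the reads of flowers and 4.97% ± 0.168 of those of leaves (SD, n = 3 each), again without overlap. The 10 most abundant transcripts took 12.7%, 12.2% and 6.55% of the reads in flowers of St1, St2 and St4, against 5.96%, 6.57% and 6.75% in leaves, and the groups overlapped. The exact two-sided permutation test gave p = 0.1 for the number of transcripts and for the non-coding share, which is the smallest p that 3 against 3 libraries allow, and p = 0.3 for the share of the top 10. Distances between libraries were root mean squares of the 500 largest log2 fold changes of a pair. Flower and leaf libraries lay 7.56 ± 0.203 apart (SD, 9 pairs), flowers 3.65 ± 0.373 from each other and leaves 3.41 ± 0.0793 from each other (SD, 3 pairs each), so that no flower library was as near to a leaf library as to another flower. The photosystem transcripts described below were higher in every leaf library than in any flower library, but the tables name no floral organ identity gene, and the label of the flowers could not be checked in that way. Of 21 transcripts with at least 10 reads in all leaves and stems of the subtropical trees and with none in those of the equatorial trees, 21 were read in each subtropical flower library. The flower library labelled Eq6 held 20 of them, against 0 in the flowers of Eq4 and Eq5, which goes against its label. Of 17 transcripts with the reverse pattern, the Eq6 flower library held 5, against 16 in flowers of each of Eq4 and Eq5 and 1, 0 and 0 in flowers of St1, St2 and St4. It thus held transcripts of both sites, and whether it was mislabelled or mixed was not tested. Equatorial values are given here from Eq4 and Eq5.

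Of the 30287 transcripts with enough reads to test, 13151 differed between flowers and leaves (43.4%), 7233 of them higher in flowers (23.9% of those tested) and 5918 lower (19.5%). These are differentially expressed transcripts (DETs) at a Benjamini-Hochberg adjusted p under 0.05 in edgeR's quasi-likelihood test with the tree in the model, and every adjusted p below is from that test. The log2 fold changes are flower minus leaf, and a value after ± beside one is its standard error (SE). Of the DETs, 99.6% changed in the same direction in all 3 trees, against 68.4% of all transcripts tested. The DETs were called from these same trees, so that this agreement is not independent of the calls. Flower and leaf libraries did not overlap for 49.9% of the transcripts tested, with flowers higher for 27.1% and lower for 22.8%. Where both tissues held more than 3 reads, the median DET was 3.27-fold higher (6353 transcripts) or 2.84-fold lower in flowers (5766 transcripts). DETs higher in flowers took 44.3%, 46.9% and 42.2% of the reads of the flower libraries of St1, St2 and St4, against 11.0%, 11.6% and 11.2% of those of the leaf libraries. DETs lower in flowers took 14.4%, 12.4% and 13.8% of the reads in flowers, against 48.1%, 48.5% and 49.0% in leaves. These shares describe the calls and were read from the same libraries. In bulk tissue, fewer cells of a type and less RNA per cell cannot be told apart, here and in all that follows.

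**Figure D1:**
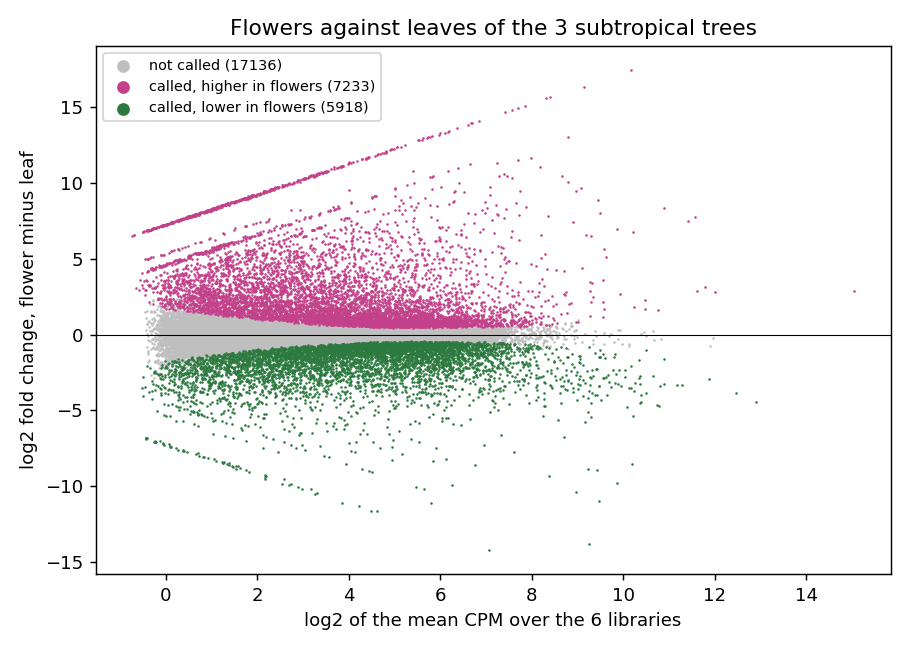
Each point is 1 of the 30287 transcripts tested, with the log2 of its mean CPM, reads scaled to a common library size, over the 6 libraries on the x axis and its log2 fold change, flower minus leaf, on the y axis. The 7233 transcripts called higher and the 5918 called lower in flowers spread over the whole range of abundance, and the straight upper and lower edges are transcripts with no or few reads in 1 of the tissues, whose plotted value depends on the model's prior count.

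Coding transcripts were called more often than non-coding transcripts, 11215 of 23191 (48.4%) against 1936 of 7096 (27.3%). The gap was found at low abundance, where 43.3% of 8567 coding and 24.0% of 5995 non-coding transcripts with a mean of 1 to 10 CPM were DETs. Between 10 and 100 CPM the shares were 50.2% of 12678 coding and 51.7% of 741 non-coding transcripts. Transcripts read in only 1 of the 2 organs were mostly those of flowers. At least 10 reads in each flower library and no read in any leaf library were found for 552 transcripts, 447 of them coding (81.0%), against 66 transcripts with the reverse pattern, 34 of them coding (51.5%). In flowers of Eq4 and Eq5, 92.2% and 93.8% of the 552 transcripts had at least 1 read, against 230 and 96 of the 552 in leaves of Eq4 and Eq5. Of the 66 transcripts, 18.2% and 21.2% had a read in flowers of Eq4 and Eq5, against 97.0% in the leaves of each. Neither set was restricted to its organ once stems were included. Of the 552 transcripts, 71.9%, 42.8% and 65.8% had a read in stems of St1, St2 and St4, and 165, 84 and 194 had at least 10, and of the 66 transcripts 62.1%, 66.7% and 68.2% had a read in those stems.

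The coding transcripts with the largest rise in flowers were very abundant there and unread in leaves. As_38507 had 24657, 20594 and 16170 reads in the flowers of trees St1, St2 and St4, while leaves had none, which put flowers at least 22132-fold higher (3 reads over the leaf libraries were taken as the floor). As_22157 had 13037, 3680 and 17208 reads in flowers (at least 10831-fold higher), As_24073 had 6239, 4968 and 7554 (at least 6453-fold) and As_22493 had 4037, 6083 and 6954 (at least 6056-fold), all with no read in leaves. The non-coding transcripts at the top were non_cod_As_31291 with 3794, 2538 and 5537 reads in flowers and non_cod_As_35222 with 1108, 978 and 822, at least 3967-fold and 1045-fold higher than in leaves, which had none. The adjusted p of these 6 transcripts lay between 1.04e-05 and 1.7e-05. None of them has an *Arabidopsis* name in the tables used here. In stems they were near 0 in St2 and St4, at no more than 0.0268% of the flower level of the same tree, whereas the stem library of St1 held 1.44% to 2.20% of the flower level of St1. As_38507 had 602 reads in the St1 stem library, against 3 and 2 in the stems of St2 and St4, so that the St1 stem library stands apart from the other stems in these 6 transcripts. Whether this is RNA of floral tissue or expression in that stem, and its part in the comparison of flowers and stems below, was not tested.

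The largest falls in flowers were of transcripts found in leaves of every tree. As_23788 had 2, 0 and 0 reads in flowers of St1, St2 and St4, against 17707, 13884 and 3862 in leaves, a 17284-fold difference of the summed levels with an exact 95% counting interval of 4784 to 142728. As_34696 had no read in flowers and 3904, 3081 and 777 in leaves, at least 2490-fold lower in flowers. As_24007 (634, 521 and 142 reads in leaves) and As_10450 (268, 1112 and 125) had no read in flowers either, at least 416-fold and 458-fold lower. The non-coding transcripts were non_cod_As_34851, with 122, 333 and 134 reads in leaves, and non_cod_As_36822, with 85, 393 and 71, both unread in flowers and at least 185-fold and 168-fold lower. Leaf counts of each of the 6 differed several-fold between trees, but their direction did not. Stems held no more than 2 reads of 5 of them in any subtropical tree, while non_cod_As_36822 had 132, 47 and 192 reads in stems of St1, St2 and St4.

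By reads alone, which are not divided by transcript length, As_44751 led the flowers with 76315, 77614 and 25469 CPM in St1, St2 and St4, against 3912, 10060 and 10232 CPM in leaves. It was followed in flowers by As_24404, with 10661, 8359 and 2730.3 CPM against 492, 1083 and 1321 CPM in leaves, and by non_cod_As_37948, with 8806, 8095 and 2076 CPM against 272, 942 and 905 CPM. All 3 were lowest in flowers of St4 and lowest in leaves of St1, and their log2 fold changes were 2.86 ± 0.86, 2.83 ± 0.68 and 3.10 ± 0.74 (adjusted p = 0.0275, 0.0105 and 0.01). Without tree St2 the adjusted p was 0.0793, 0.0643 and 0.0622, and without St1 it was 0.128 for As_44751. Against stems of the same trees none of them was a DET (flower minus stem adjusted p = 0.494, 0.266 and 0.350). As_44751 had 62126, 13293 and 36178 CPM in stems of St1, St2 and St4. It was higher in the flower than in the leaf of Eq4 (131747 against 43481 CPM) and lower in that of Eq5 (40668 against 46566 CPM). Stem and equatorial levels are scaled over all 18 libraries. The most abundant transcripts of leaves were As_37959, with 672, 715 and 618 CPM in flowers against 11574, 17439 and 14694 CPM in leaves, and As_44706, with 1092, 566 and 578 CPM in flowers against 10361, 11864 and 9257 CPM in leaves. They were lower in flowers by a log2 fold change of -4.43 ± 0.49 and -3.88 ± 0.47 (adjusted p = 0.000201 and 0.000336), and neither has a name in the tables used here. The 3 most abundant transcripts of leaves also included As_44751.

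Among the 129 transcripts with an *Arabidopsis* name, 56 were higher and 25 lower in flowers, 31 were not DETs and 17 had too few reads to test. The study had chosen most of them for a difference between sites in leaves or stems, and the leaf libraries used here were part of that choice. Choosing a transcript as higher in equatorial leaves selects for low subtropical leaf values, and by construction favours a higher value in flowers. Of 67 transcripts chosen in that way alone, 45 were higher and 3 lower in flowers, and of 16 chosen as higher in subtropical leaves alone, 2 were higher and 9 lower. Among the 19 transcripts chosen for neither, 4 were higher (21.1%) and 4 were lower (21.1%), near the shares over all transcripts. These 19 are not a random sample. They include the 4 control candidates of real-time PCR, picked for a fairly even level in leaves, of which UBQ6 and UBP12 were called. The counts below are therefore not independent of the choice by site, and equatorial trees are given beside them, where the same choice acts in the opposite direction.

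**Figure D2:**
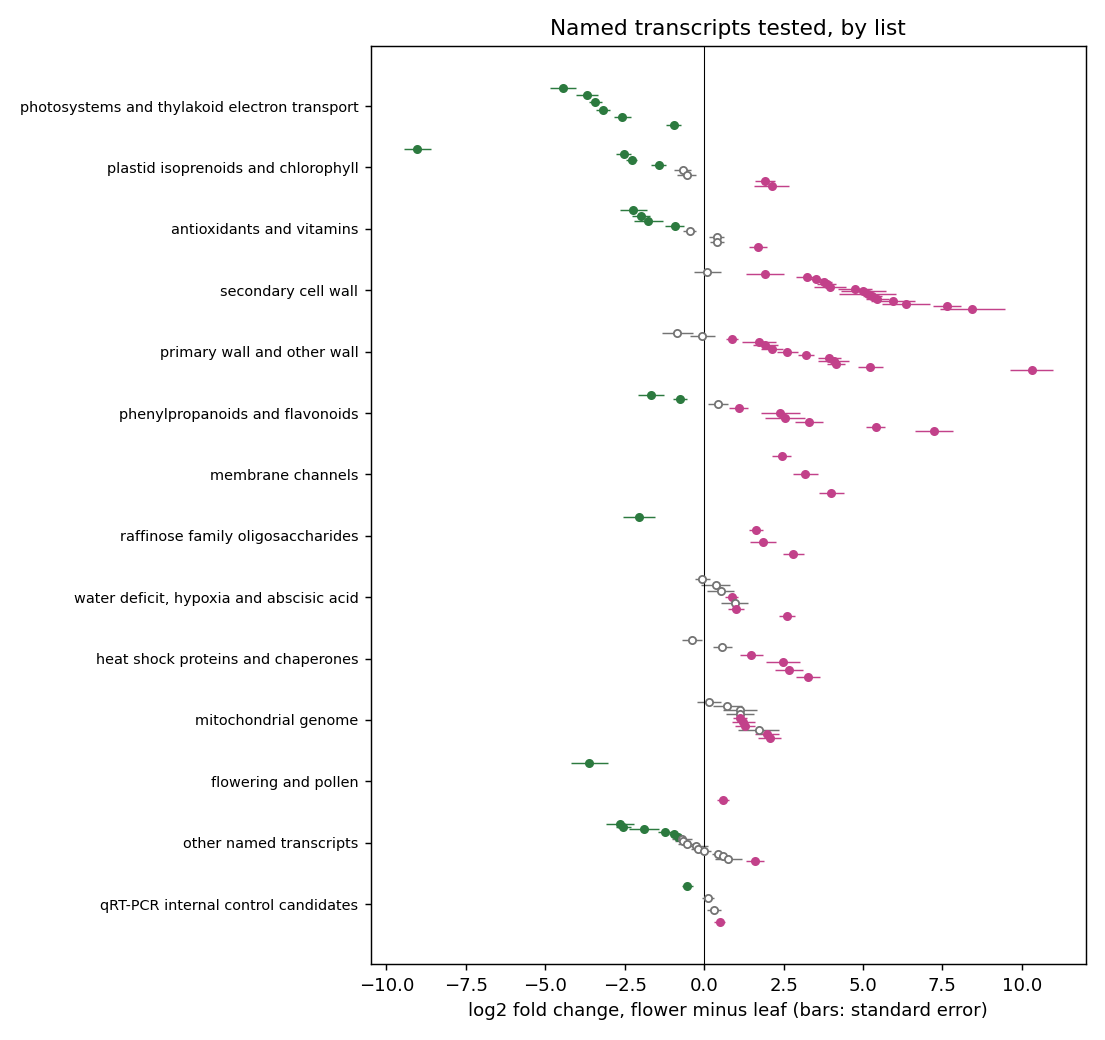
Log2 fold change, flower minus leaf, of the 112 named transcripts that were tested, grouped by list down the page, with bars for the standard error. Filled points are the 81 DETs, pink where higher and green where lower in flowers, and open points did not pass the test; the 6 photosystem transcripts are all on the left and 15 of the 16 secondary wall transcripts tested are called on the right.

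Transcripts of the photosynthetic membrane were lower in flowers without exception. All 6 members of the list fell, with a median log2 fold change of -3.31 against 0.11 over the 49003 transcripts of the fit without a filter. Over all transcripts tested, 19.5% were lower in flowers. PSBO1 (As_16502), which encodes a subunit of the oxygen-evolving complex of photosystem II, had 11.4, 12.0 and 14.1 CPM in flowers of St1, St2 and St4, against 125, 157 and 123 CPM in leaves. The groups did not overlap, and the log2 fold change was -3.42 ± 0.20 (adjusted p = 1.31e-05). PSAO (As_26420), subunit O of photosystem I, had 66.6, 39.6 and 39.7 CPM in flowers, against 516, 447 and 342 CPM in leaves (-3.18 ± 0.22, adjusted p = 2.4e-05). PQL2 (As_24908), a subunit of the NDH complex that carries electrons around photosystem I, had 9.95, 1.71 and 1.91 CPM in flowers, against 97.6, 78.6 and 67.5 CPM in leaves. Its log2 fold change of -4.45 ± 0.41 (adjusted p = 8.25e-05) was the lowest of the list, although the flower of St1 stood well above the other flowers. PSB27 (As_15863), which acts in assembly and repair of photosystem II, had 4.40, 3.98 and 7.14 CPM in flowers and 66.6, 97.6 and 46.5 CPM in leaves (-3.69 ± 0.35, adjusted p = 8.92e-05). PQL3 (As_26953), a relative of PQL2, fell by 2.57 ± 0.26 on the log2 scale. ATPD (As_27536), the delta subunit of the chloroplast ATP synthase, fell least, with 6.81, 7.83 and 6.0 CPM in flowers against 13.5, 18.1 and 9.74 CPM in leaves (-0.96 ± 0.24, adjusted p = 0.0129), and did not pass the test without St2 (adjusted p = 0.0808). All 6 had been chosen as higher in subtropical than in equatorial leaves. Of the 16 transcripts chosen in that way alone, these 6 among them, 9 were lower in flowers, so that the count is not independent of that choice. In the fit of Eq4 and Eq5 the log2 fold change was negative for 6 of 6, from -4.81 to -0.37. The exception within trees was ATPD, at 3.58 CPM in the flower and 3.43 CPM in the leaf of Eq5 (fitted -0.37, adjusted p = 0.597). Against stems of the subtropical trees, 4 of the 6 were lower in flowers (16.7% of all transcripts tested against stems were higher and 14.7% lower in flowers, with the same flower libraries). PSBO1 had 70.9, 54.3 and 60.9 CPM in stems of St1, St2 and St4, between its levels in flowers and leaves (stem levels are scaled over all 18 libraries). Calls against stems numbered 10759 of 34286 transcripts with all trees and 7312 without St1, whose stem library stands apart as described above, and 6086 without St2.

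PHOT2 (As_13960), a blue-light photoreceptor of chloroplast movement, was lower in flowers too. It had 107, 85.8 and 109 CPM in flowers, against 505, 642 and 610 CPM in leaves, a log2 fold change of -2.54 ± 0.23 (adjusted p = 8.25e-05) that was -2.91 in Eq4 and Eq5.

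The plastid isoprenoid list moved both ways. Its 8 members had 4 DETs lower and 2 higher in flowers, with a median log2 fold change of -1.05. Over all transcripts tested, 19.5% were lower and 23.9% higher in flowers. The members had been chosen as higher in subtropical leaves or stems, so that the count is not independent of that choice. CLA1 (As_26117), deoxyxylulose phosphate synthase and thus the first enzyme of the plastid (MEP) pathway, had 2, 0 and 0 reads in flowers of St1, St2 and St4, against 631, 512 and 176 reads in leaves. The summed level was 643-fold lower in flowers, with an exact 95% counting interval of 178 to 5315 (adjusted p = 6.07e-06). ISPD (As_48417), a later enzyme of the same pathway, had 4.92, 4.13 and 4.35 CPM in flowers, against 35.7, 26.8 and 18.1 CPM in leaves (-2.53 ± 0.25, adjusted p = 0.000108). Both copies of GGPS1, geranylgeranyl diphosphate synthase, were lower in flowers. As_24340 had 22.6, 27.7 and 24.1 CPM in flowers and 118, 127 and 116 CPM in leaves (-2.28 ± 0.17, adjusted p = 3.17e-05), and As_17120 had 43.2, 98.0 and 71.0 CPM in flowers and 173, 192 and 176 CPM in leaves (-1.42 ± 0.23, adjusted p = 0.00158). None of the groups overlapped. Higher in flowers were ABC4 (As_25935), a prenyltransferase of phylloquinone synthesis, with 40.2, 31.2 and 83.4 CPM in flowers against 5.42, 15.2 and 21.4 CPM in leaves (1.93 ± 0.32, adjusted p = 0.00162), and a copy of IPP1, isopentenyl diphosphate isomerase. This copy (As_21256) had 37.6, 24.9 and 36.9 CPM in flowers, against 9.55, 15.2 and 1.81 CPM in leaves (2.13 ± 0.55, adjusted p = 0.0142). The other copy of IPP1 (As_19328) had 81.6, 84.9 and 94.1 CPM in flowers against 192, 154 and 88.0 CPM in leaves and was not a DET (adjusted p = 0.0726). The difference between the copies was not tested. Reads that match several transcripts are not in the counts, so that values of near-identical copies are uncertain. CAO (As_12775), which forms chlorophyll b, was not a DET (adjusted p = 0.188). All 6 DETs of the list kept their direction in Eq4 and Eq5, where the log2 fold change of As_21256 was 4.54 and that of ABC4 was 3.53.

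**Figure D3:**
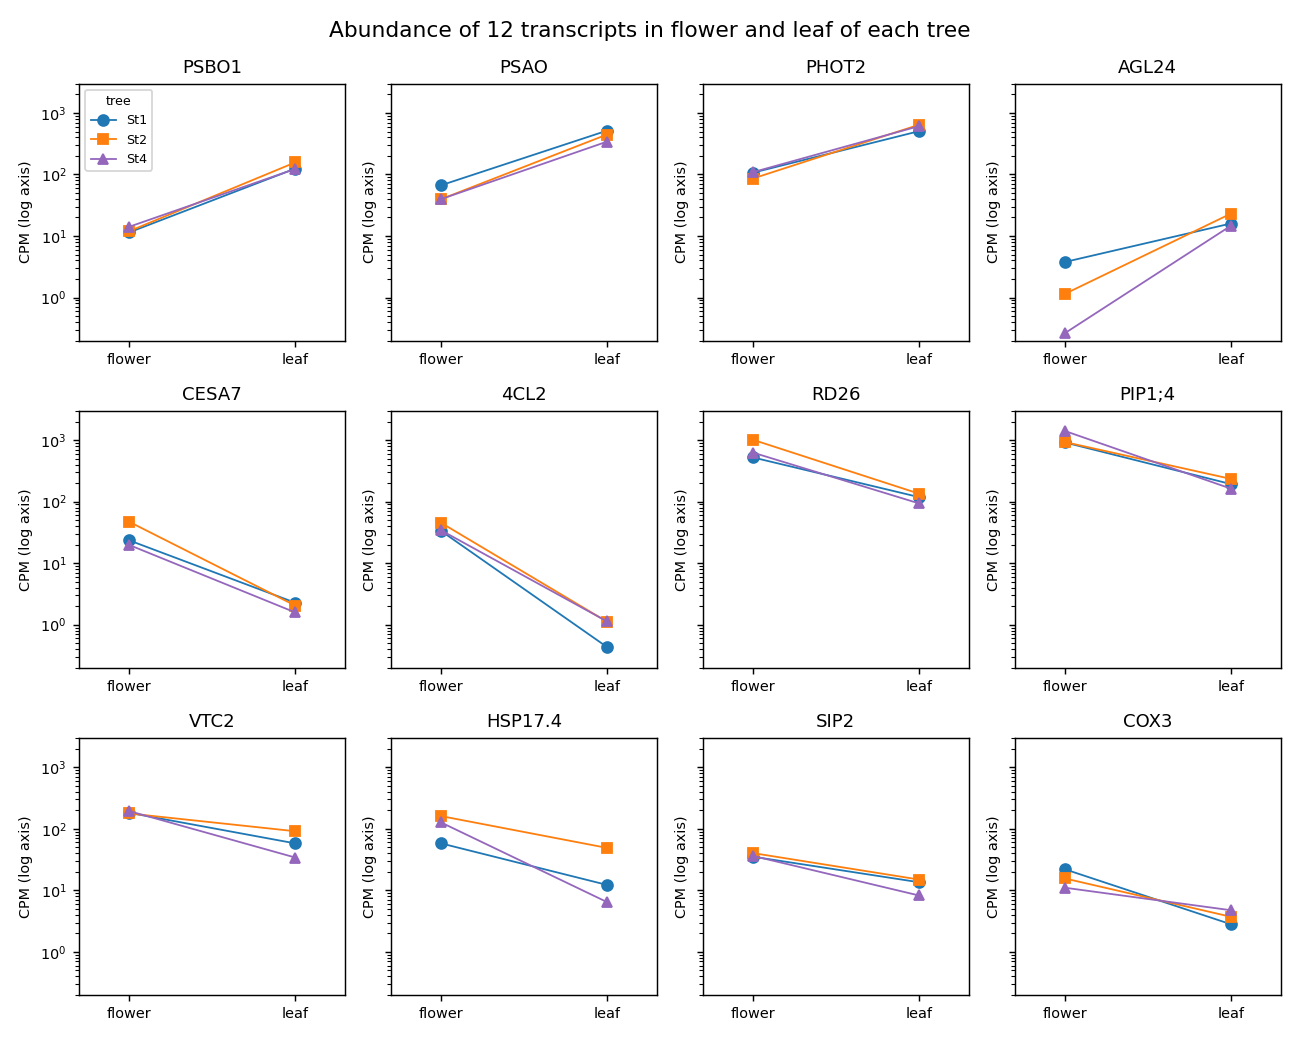
CPM on a log axis, the same in all panels, in flower (left) and leaf (right) of trees St1, St2 and St4, for 12 named transcripts, with a line joining the tissues of a tree. All lines of PSBO1, PSAO, PHOT2 and AGL24 are lower in flower and all lines of the other 8 are higher in flower; the flower of St1 is the highest for AGL24 at 3.77 CPM and the lowest for HSP17.4 at 58.1 CPM.

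Transcripts of secondary wall synthesis were higher in flowers than in leaves. Of the 19 members of the list, 15 were higher, 0 lower and 1 was not a DET, and 3 had too few reads to test. Over all transcripts tested, 23.9% were higher and 19.5% lower in flowers. Of the 67 transcripts chosen as higher in equatorial leaves alone, 45 were higher, so that the count is not independent of that choice. The median log2 fold change was 3.95 with transcripts unread in leaves set at their lower bound, and 0.11 over all transcripts. The cellulose synthases CESA4, CESA7 and CESA8 form the complex that makes cellulose of the secondary wall. CESA7 (As_14056) had 23.6, 47.2 and 19.8 CPM in flowers of St1, St2 and St4, against 2.28, 2.05 and 1.59 CPM in leaves (3.86 ± 0.29, adjusted p = 3.42e-05). CESA4 (As_17083) had 21.7, 37.4 and 17.8 CPM in flowers and 2.17, 2.42 and 1.81 CPM in leaves (3.53 ± 0.26, adjusted p = 3.14e-05), and CESA8 (As_12790) had 21.1, 43.5 and 11.1 CPM in flowers and 3.36, 2.33 and 1.59 CPM in leaves (3.25 ± 0.35, adjusted p = 0.00019). All 3 were highest in the flower of St2. The enzymes of xylan, the main hemicellulose of these walls, gave the largest changes. IRX14-L (As_1581), of the xylan backbone, had 322, 166 and 413 reads in flowers against 2, 2 and 0 in leaves (7.65 ± 0.45, adjusted p = 1.31e-05), and TBL33 (As_19348), of xylan acetylation, had 225, 261 and 204 reads against 7, 8 and 4 (5.29 ± 0.30, adjusted p = 1.12e-05). GATL1 (As_5093), also of xylan synthesis, had 176, 100 and 164 reads in flowers and 4, 4 and 2 in leaves (5.45 ± 0.36, adjusted p = 2.12e-05). GAUT12 (As_3499) had 30, 56 and 25 reads in flowers and none in leaves, at least 42.5-fold higher. PGSIP1 (As_44402), which adds glucuronic acid to xylan, had 172 reads over the flowers and 2 over the leaves, 88.2-fold higher with an exact 95% counting interval of 24.0 to 734, and GXM1 (As_18275), which methylates that side group, had 76 and 2, 39.0-fold higher with an interval of 10.4 to 328. Of enzymes that act on lignin, 2 in this list were higher in flowers, whereas FAH1, described below with the phenylpropanoids, was lower. LAC4 (As_15146) had 13.7, 25.0 and 9.14 CPM in flowers, against 1.3, 0.466 and 1.13 CPM in leaves (3.95 ± 0.50, adjusted p = 0.000411), and the peroxidase AT5G66390 (As_19837) had 49.3, 36.1 and 37.2 CPM in flowers against 3.91, 3.35 and 1.81 CPM in leaves (3.77 ± 0.24, adjusted p = 1.9e-05). The remaining DETs were TBL3 (5.95 ± 0.68), IRX15-L (5.02 ± 0.70), FLA11 (4.76 ± 0.54) and COBL4 (1.91 ± 0.59), of which COBL4 did not pass the test without St1 (adjusted p = 0.115), without St2 (adjusted p = 0.141) or with all 18 libraries.

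The regulators of the list and 1 xylan enzyme gave low values. NST1 (As_38619), a NAC factor that switches on secondary wall formation in fibres, had 16, 12 and 4 reads in flowers and none in leaves and was not tested. MYB52 (As_45261) had 2.09, 2.85 and 2.35 CPM in flowers, against 1.74, 3.73 and 1.70 CPM in leaves, and the groups overlapped (adjusted p = 0.87). IRX9-L, of the xylan backbone, went against the other xylan enzymes in both of its copies, which had too few reads to test. As_3825 had 0, 0 and 1 reads in flowers of St1, St2 and St4, against 2, 2 and 3 in leaves, and As_8224 had 2, 0 and 0 in flowers, against 2, 6 and 7 in leaves. In Eq4 and Eq5 both copies were called lower in flowers (-3.79, adjusted p = 0.0240, and -3.60, adjusted p = 0.0210). Of the 19 members, 18 had been chosen as higher in equatorial leaves and MYB52 as higher in equatorial stems. In Eq4 and Eq5, where the same choice raises the leaf level, the fitted difference was positive for all 15 DETs, with log2 fold changes of 1.81 to 3.47. Stems were the tissue with the highest level of many of them. Against stems of the same trees, sharing the flower libraries with the comparison above, 1 of 17 members tested was higher in flowers (IRX14-L, 1.0, adjusted p = 0.0262) and 7 were lower. LAC4 had 213, 71.0 and 153 CPM in stems of St1, St2 and St4, 3.13 above flowers on the log2 scale (flower minus stem -3.13, adjusted p = 0.00172), and CESA4 had 145, 48.6 and 92.3 CPM in stems (-1.87, adjusted p = 0.00758).

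**Figure D4:**
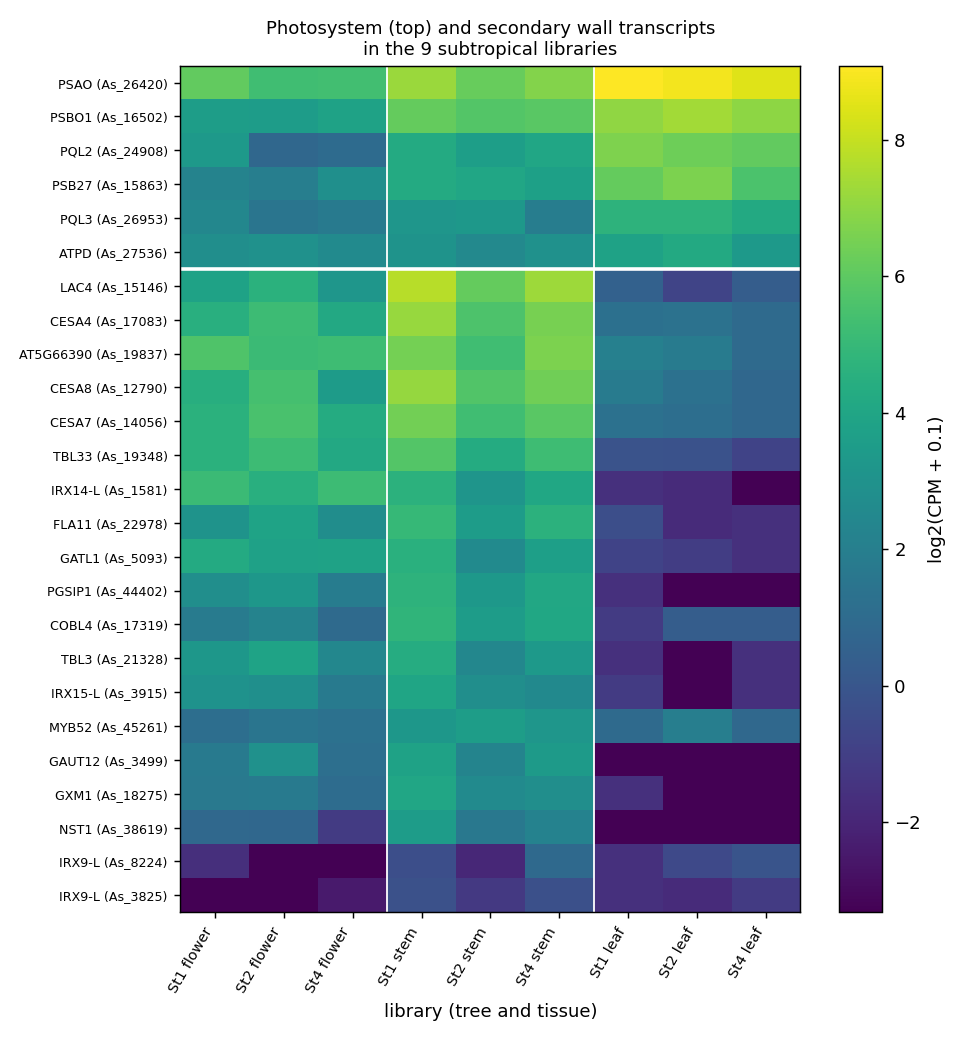
Colour gives log2(CPM + 0.1) of the 6 photosystem transcripts (above the white line) and the 19 secondary wall transcripts (below it) in flower, stem and leaf of St1, St2 and St4. Photosystem transcripts are brightest in leaves, whereas most secondary wall transcripts are dark in leaves and bright in stems and flowers, with LAC4 at 13.7, 25.0 and 9.14 CPM in flowers.

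The list of primary and other wall transcripts had 11 of 16 members higher in flowers, 0 lower and 2 that were not DETs, while 3 had too few reads to test. Its median log2 fold change was 2.37. Over all transcripts tested, 23.9% were higher and 19.5% lower in flowers. CSLG1 (As_17427), a cellulose-synthase-like protein, had 103, 192 and 119 reads in flowers and none in leaves, at least 155-fold higher. CSLA2 (As_19225), a glucomannan synthase, had 158, 56 and 149 reads in flowers, against 4, 2 and 3 in leaves (5.24 ± 0.38, adjusted p = 2.92e-05). RGP1 (As_20161), which supplies the arabinose of wall polysaccharides, had 91.4, 39.7 and 65.9 CPM in flowers against 2.82, 3.45 and 4.19 CPM in leaves (4.15 ± 0.30, adjusted p = 2.61e-05). COB (As_15010), which orients cellulose in expanding cells, had 86.2, 46.1 and 45.5 CPM in flowers and 6.07, 5.22 and 7.36 CPM in leaves (3.20 ± 0.26, adjusted p = 4.21e-05), and the peroxidase AT5G05340 (As_16204) had 297, 110 and 126 CPM in flowers against 9.11, 12.5 and 9.74 CPM in leaves (3.94 ± 0.36, adjusted p = 7.96e-05). In all of them the lowest flower was above the highest leaf. The other DETs had log2 fold changes between 0.89 and 4.08, and GATL7 (1.73 ± 0.52) did not pass the test without St2 (adjusted p = 0.157) or without the tree in the model (adjusted p = 0.0594). Of the 16, 15 had been chosen as higher in equatorial leaves. Among the 67 transcripts chosen in that way alone, 45 were higher in flowers, and nothing is read from the count of this list. In Eq4 and Eq5, 10 of the 11 kept their direction, and AT4G34480, a member of the beta-1,3-glucanase family, had -0.15.

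The flavonoid and phenylpropanoid list had 6 of 9 members higher in flowers, with 2 lower and 1 not a DET (median log2 fold change 2.39). Over all transcripts tested, 23.9% were higher. All members but FAH1 and UGT78D2 had been chosen as higher in equatorial leaves. Of the 67 transcripts chosen in that way alone, 45 were higher in flowers, and nothing is read from the count of this list. 4CL2 (As_13197), 4-coumarate CoA ligase at the entry of the pathway, had 33.6, 45.5 and 34.4 CPM in flowers of St1, St2 and St4, against 0.434, 1.12 and 1.13 CPM in leaves, a log2 fold change of 5.40 ± 0.29 (adjusted p = 1.04e-05). TT7 (As_3457), flavonoid 3′-hydroxylase, had 41, 128 and 142 reads in flowers, against 0, 2 and 0 in leaves, 159-fold higher in the summed level with an exact 95% counting interval of 43.8 to 1323. UGT78D2 (As_11340), which attaches glucose to flavonols and anthocyanidins, had 51.8, 41.7 and 159 CPM in flowers against 5.10, 10.1 and 6.68 CPM in leaves (3.31 ± 0.43, adjusted p = 0.000492), and the flower of St4 stood well above the others. UGT78D2 had not been chosen for a difference between sites. The flavonol regulators MYB12 (As_33140) and MYB111 (As_41194) were higher in flowers at low counts. MYB12 had 18, 9 and 23 reads in flowers, against 2, 3 and 3 in leaves (2.56 ± 0.63, adjusted p = 0.0113), and MYB111 had 14, 28 and 27 against 5, 4 and 4 (2.4 ± 0.61, adjusted p = 0.0131). MYB12 did not pass the test without St1 (adjusted p = 0.0574) or St4 (adjusted p = 0.0637), and MYB111 without St2 (adjusted p = 0.0971) or with all 18 libraries. ANL2 (As_20077), a homeobox factor of anthocyanin accumulation, was higher by 1.09 ± 0.31 (adjusted p = 0.0213), but not without St1 (adjusted p = 0.0655) or St2 (adjusted p = 0.116). FAH1 (As_9876), ferulate 5-hydroxylase, was the enzyme that went the other way, with 1.68, 1.14 and 1.74 CPM in flowers against 3.36, 4.29 and 7.47 CPM in leaves (-1.67 ± 0.42, adjusted p = 0.0121, and 0.0574 without St2 and 0.0878 without St4), and it did not pass with all 18 libraries either. A copy of HY5 (As_46493), a bZIP factor of light signalling, was lower by a log2 fold change of -0.76 ± 0.22 (adjusted p = 0.0229) with overlapping groups, and not without St2 (adjusted p = 0.0769), without St4 (adjusted p = 0.0838) or without the tree in the model (adjusted p = 0.115). Of the 7 DETs of the list with a value in Eq4 and Eq5, 5 kept their direction, and MYB111 (-1.69) and ANL2 (-0.33) did not. Against stems of the subtropical trees, 2 of the 9 members were higher in flowers and 1 was lower. In stems of St1, St2 and St4, 4CL2 had 27.4, 28.0 and 21.1 CPM (flower minus stem adjusted p = 0.0749). UGT78D2 had 60.2, 17.2 and 44.2 CPM there (adjusted p = 0.19).

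Stress and transport lists were led by small sets of transcripts. Of 5 membrane channel transcripts, 3 were higher in flowers and 2 had too few reads to test. All 5 had been chosen as higher in equatorial leaves, and 23.9% of all transcripts tested were higher in flowers. The aquaporin PIP1;4 was higher in both copies, As_44068 with 921, 933 and 1416 CPM in flowers against 194, 235 and 163 CPM in leaves (2.45 ± 0.30, adjusted p = 0.000348), and As_20592 with 8.48, 11.0 and 6.79 CPM against 1.41, 0.932 and 0.566 CPM (3.18 ± 0.39, adjusted p = 0.000354). SLAH3 (As_30027), an anion channel of guard cells, had 58, 82 and 166 reads in flowers and 4, 10 and 5 in leaves (4.00 ± 0.39, adjusted p = 0.000108). The 3 transcripts kept their direction in Eq4 and Eq5 (1.57 to 3.66).

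RD26 (As_12052), a NAC factor induced by drought and abscisic acid, had 525, 1018 and 630 CPM in flowers, against 119, 135 and 93.9 CPM in leaves (2.60 ± 0.25, adjusted p = 0.000106). Of the 8 transcripts of the water deficit list, 3 were higher, 0 lower, 4 were not DETs and 1 was not tested (median log2 fold change 0.91). Over all transcripts tested, 23.9% were higher in flowers and 43.4% were called in either direction. With 7 members tested, nothing is read from the count. The other DETs were RAP2.4 (As_11218, 0.86 ± 0.21), which did not pass without the tree in the model (adjusted p = 0.0565) or with all 18 libraries in the fit (adjusted p = 0.111) and had the opposite sign in Eq4 and Eq5 (-0.76), and HRA1 (As_48776, 1.01 ± 0.24), an attenuator of the hypoxia response, which did not pass without St4 (adjusted p = 0.0850) or with all 18 libraries. RD26 and HRA1 kept their direction in Eq4 and Eq5 (1.09 and 1.64). NCED3 (As_19228), of abscisic acid synthesis, had 17.3, 20.6 and 31.6 CPM in flowers against 12.7, 18.8 and 5.66 CPM in leaves, with overlapping groups (adjusted p = 0.0978).

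Heat shock proteins and chaperones had 4 of 8 members higher in flowers, 0 lower, 2 that were not DETs and 2 not tested (median log2 fold change 2.17). Over all transcripts tested, 23.9% were higher and 19.5% lower. All members but DNAJ had been chosen as higher in equatorial leaves or stems, so that the count is not independent of that choice. The small heat shock protein HSP17.4 (As_12732) had 58.1, 161 and 127 CPM in flowers, against 12.3, 49.0 and 6.45 CPM in leaves (2.67 ± 0.45, adjusted p = 0.00174, and 0.0648 with all 18 libraries in the fit). AT3G53990 (As_20859), of the universal stress protein family, had 69.1, 213 and 100 CPM in flowers against 17.0, 14.0 and 6.79 CPM in leaves (3.27 ± 0.39, adjusted p = 0.000284). A copy of HSP17.6II (As_11099) was higher by 1.49 ± 0.37 (adjusted p = 0.0114), and another (As_24319) was not a DET (0.57 ± 0.30, adjusted p = 0.159). HSP101 (As_23151), a disaggregase, had 28, 67 and 44 reads in flowers and 11, 8 and 6 in leaves (2.49 ± 0.54, adjusted p = 0.00656), did not pass without St2 (adjusted p = 0.0621) and had a log2 fold change of -0.71 in Eq4 and Eq5. Flowers of St2, the library with the fewest reads, were the highest flowers for HSP17.4, AT3G53990 and HSP101.

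Transcripts of sugars of the raffinose family were higher in flowers for 3 of 4 members and lower for 1. All 4 had been chosen as higher in equatorial leaves, which favours a higher value in subtropical flowers. The share higher over all transcripts tested was 23.9%, and nothing is read from the count. SIP1 (As_13250), raffinose synthase, had 7.54, 15.7 and 8.70 CPM in flowers, against 1.08, 2.33 and 1.13 CPM in leaves (2.81 ± 0.32, adjusted p = 0.000231). RFS4 (As_11264), of stachyose and raffinose synthesis, had 6.39, 3.41 and 3.57 CPM against 1.52, 0.932 and 1.13 CPM (1.86 ± 0.41, adjusted p = 0.00671), and SIP2 (As_44184), an alkaline galactosidase that breaks raffinose down, had 35.3, 40.4 and 36.4 CPM against 13.6, 15.0 and 8.27 CPM (1.64 ± 0.21, adjusted p = 0.000478). GolS1 (As_13564), the galactinol synthase of the first step, had 1.47, 2.85 and 0.87 CPM in flowers and 15.0, 5.22 and 3.28 CPM in leaves (-2.05 ± 0.51, adjusted p = 0.0122, and 0.0598 without St1). The synthesis genes were far lower in flowers and leaves than in stems, where GolS1 had 500, 1354 and 693 CPM and RFS4 had 433, 764 and 720 CPM in St1, St2 and St4 (flower minus stem -9.03 and -7.16). In Eq4 and Eq5 the difference between flower and leaf was -1.23 for SIP1 and -2.17 for RFS4, opposite to the subtropical trees, and 1.51 for SIP2. There the same choice raises the leaf level, so that these signs are not independent of it.

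Antioxidant and vitamin transcripts moved both ways, with 1 of 8 higher, 4 lower and 3 that were not DETs. The shares over all transcripts tested were 23.9% higher and 19.5% lower. VTC2 (As_15617), GDP-L-galactose phosphorylase of ascorbate synthesis, had 182, 178 and 195 CPM in flowers of St1, St2 and St4, against 58.0, 91.4 and 34.2 CPM in leaves (1.70 ± 0.29, adjusted p = 0.00196). CSD2 (As_38172), the copper/zinc superoxide dismutase of plastids, had 61.1, 32.0 and 41.7 CPM in flowers and 150, 229 and 153 CPM in leaves (-1.99 ± 0.29, adjusted p = 0.000899). It had been chosen as higher in subtropical leaves and stems. In Eq4 and Eq5 its log2 fold change was 1.66 (adjusted p = 0.0126), opposite to the subtropical trees, whereas the other 4 DETs of the list kept their direction. Both copies of the cytosolic enzyme CSD1 were not DETs (adjusted p = 0.156 and 0.115). FSD2 (As_15772), an iron superoxide dismutase of plastids, was lower by a log2 fold change of -0.93 ± 0.29 (adjusted p = 0.0314, and 0.156 without St1). PDX2, of vitamin B6 synthesis, was lower in both copies, As_4337 by -2.22 ± 0.41 (adjusted p = 0.00287) and As_48360 by -1.75 ± 0.45 (adjusted p = 0.0146). The second copy had overlapping groups and did not pass without St2 (adjusted p = 0.0674), without St4 (adjusted p = 0.0593) or without the tree in the model (adjusted p = 0.189).

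Transcripts matched to the mitochondrial genome had 5 of 13 members higher in flowers, 0 lower, 5 that were not DETs and 3 not tested (median log2 fold change 1.13). Over all transcripts tested, 23.9% were higher in flowers. Among the 67 transcripts chosen by the study as higher in equatorial leaves alone, 45 were higher, and nothing is read from the count of 5 of 10 members tested. COX3 (As_18535), of cytochrome c oxidase, had 22.1, 15.7 and 11.1 CPM in flowers, against 2.82, 3.73 and 4.76 CPM in leaves (2.07 ± 0.36, adjusted p = 0.00203). COX2 (1.99 ± 0.38), COX1 (1.29 ± 0.32), ATP1 (1.13 ± 0.21) and ATP6-1 (1.23 ± 0.37) followed. With all 18 libraries in the fit, ATP1 (adjusted p = 0.127), COX1 and ATP6-1 did not pass. COX1 did not pass without St1 (adjusted p = 0.0565), nor did ATP6-1 without St1 (adjusted p = 0.117), without St4 (adjusted p = 0.0534) or without the tree in the model (adjusted p = 0.0637). All 13 had been chosen as higher in equatorial leaves, and in Eq4 and Eq5 the 5 DETs had log2 fold changes between -0.93 and 0.25.

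The transcripts with a role in reproduction differed in direction. AGL24 (As_10296), a MADS-box factor of flowering time, had 3.77, 1.14 and 0.261 CPM in flowers, against 15.9, 23.0 and 14.6 CPM in leaves, without overlap (-3.62 ± 0.58, adjusted p = 0.00139). DEX1 (As_14393), needed for the pattern of the pollen wall, had 105, 79.4 and 124 CPM in flowers against 63.2, 69.3 and 69.7 CPM in leaves (0.59 ± 0.19, adjusted p = 0.0367). It did not pass without St1 (adjusted p = 0.169), without St4 (adjusted p = 0.191) or without the tree in the model (adjusted p = 0.0532). Nothing is read from the counts of the other 19 named transcripts (43.4% of all transcripts tested were called in either direction). Of these 19, 1 was higher, 6 were lower, 9 were not DETs and 3 were not tested. They included DRT102 (As_14939), of tolerance to DNA damage (-2.66 ± 0.44, adjusted p = 0.00166), ARD4 (As_12788), an acireductone dioxygenase (-1.23 ± 0.22, adjusted p = 0.00237), and ATRZ-1A (As_16912), a glycine-rich RNA-binding protein (-0.95 ± 0.16, adjusted p = 0.00199). The aldo-keto reductase AT2G37770 (As_3802) was higher by 1.59 ± 0.29 (adjusted p = 0.00271).

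Primers for internal controls of real-time PCR had been designed for 4 transcripts of fairly even level in leaves, of which UBC11 and UBP12 served as the references. UBC11 (0.32 ± 0.22) and EIF4A1 (0.12 ± 0.18) were not DETs between flowers and leaves. UBQ6 had 109, 82.5 and 90.2 CPM in flowers against 83.4, 60.7 and 58.1 CPM in leaves (0.49 ± 0.17, adjusted p = 0.0438) and UBP12 was higher in leaves of all 3 trees (-0.52 ± 0.18, adjusted p = 0.0423). Neither passed the test when any of the 3 trees was left out (adjusted p from 0.0908 to 0.218 for UBQ6 and from 0.0608 to 0.199 for UBP12) or without the tree in the model (0.123 and 0.0968).

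The difference between flowers and leaves was then set beside that of the equatorial trees. Of the subtropical DETs tested in Eq4 and Eq5, 95.1% of those higher and 95.7% of those lower in flowers had the same direction there. Among the named transcripts, 70 of 80 DETs kept their direction and 10 did not, of which 9 had been chosen as higher in equatorial leaves alone. The site by tissue interaction over the flower and leaf libraries of all 6 trees gave 0 DETs of 34146 transcripts in edgeR's test, with 3053 at an unadjusted p under 0.05, and 196 in DESeq2. Without tree Eq6, whose flower library held transcripts of both sites, it gave 132 of 35707 transcripts (0.37%), with 60 of them having the higher flower minus leaf value in subtropical trees.

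**Figure D5:**
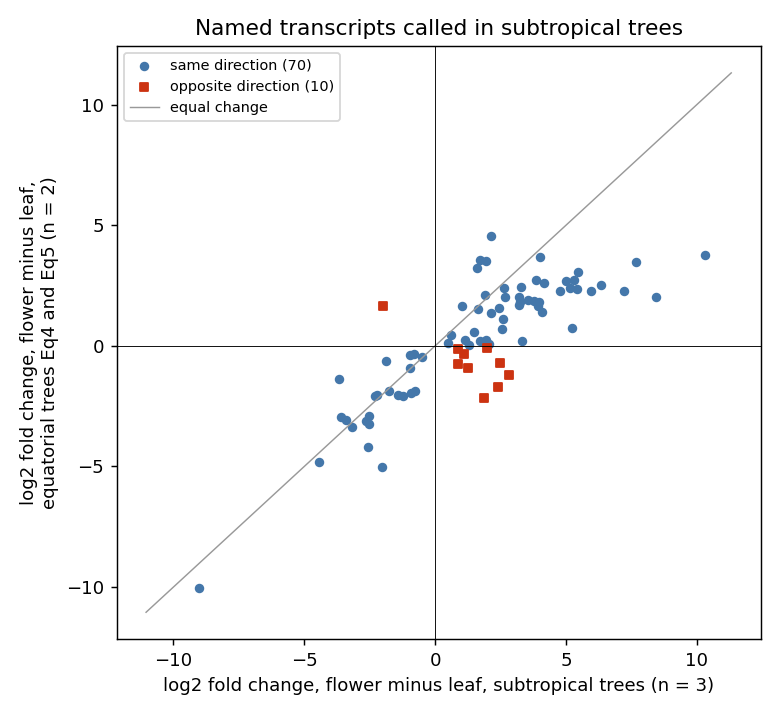
Each point is 1 of the 80 named DETs, with the log2 fold change, flower minus leaf, in subtropical trees (n = 3) on the x axis and in equatorial trees Eq4 and Eq5 (n = 2) on the y axis; the line marks equal change. Circles are the 70 transcripts with the same direction at both sites and red squares the 10 with opposite directions, 9 of them higher in flowers in the subtropical trees alone and CSD2 lower.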

How the data were processed

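TruSeq libraries were sequenced as 72-bp paired reads. The authors deposited a table of raw counts per transcript of a de novo assembly, made from uniquely mapped reads only (Bowtie 0.12.2 per the labels). Counts were scaled by TMM, transcripts with few reads were removed with filterByExpr, and a quasi-likelihood model with tree and tissue was fitted in edgeR 4.0.16 (R 4.3.3). P-values were adjusted by Benjamini-Hochberg over all transcripts tested. The trees are separate individuals at least 100 m apart by the study's methods. By the labels, a number marks 1 tree in all tissues, and deviations of same-numbered flower and leaf libraries from the group means correlated at 0.297 to 0.382 (Pearson, across transcripts). No 2 libraries agreed within sampling noise. Standard errors were the log2 fold change divided by the root of F. Intervals and floors cover counting error only.

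The transcripts named were those paired with an *Arabidopsis* locus in the study's tables, led in each list by adjusted p, up to 4 in each direction. Further members were named for their role or where leaving out a tree ended a call, with the 4 coding and 2 non-coding transcripts of largest change in each direction with a mean of at least 10 CPM in the higher tissue, and the 3 most abundant of each tissue. Members and lists were chosen with earlier results of these data known. Alternatives were DESeq2 1.42.0, edgeR's exact test, RLE scaling, other filters, more libraries in the fit, no replicate block and each tree left out. The test was also run on simulated counts with 200 transcripts changed by known folds. These are far fewer than the DETs found here, so that this run cannot check scaling or error rates for these data.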

Additional observations from a re-analysis of the deposited data

Results flagged for a closer look

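For 4 named transcripts the difference between flower and leaf itself differed between the sites (edgeR's quasi-likelihood interaction test, Benjamini-Hochberg adjusted over all transcripts) once tree Eq6 was left out. With Eq6 in the model none of the 4 passed in edgeR, whereas DESeq2 with Eq6 called CSD2 (adjusted p = 8.42e-09), DNAJ (adjusted p = 0.00128) and SIP1 (adjusted p = 0.00608) but not CSLA2 (adjusted p = 0.173).

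SIP1, raffinose synthase, had 72, 110 and 100 reads in flowers of St1, St2 and St4 and 28 and 58 in flowers of Eq4 and Eq5, against 10, 25 and 10 reads in subtropical leaves and 189 and 120 in leaves of Eq4 and Eq5. The interaction was 3.995 on the log2 scale (SE 0.44, adjusted p = 0.0113, and 0.313 with Eq6).

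CSD2, the plastid copper/zinc superoxide dismutase, had 583, 225 and 479 reads in subtropical flowers and 130 and 175 in flowers of Eq4 and Eq5, against 1381, 2455 and 1349 in subtropical leaves and 174 and 31 in leaves of Eq4 and Eq5. Its interaction was -3.679 (SE 0.52, adjusted p = 0.0246, and 0.22 with Eq6).

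CSLA2, a glucomannan synthase, had 158, 56 and 149 reads in subtropical flowers and 43 and 39 in flowers of Eq4 and Eq5, against 4, 2 and 3 in subtropical leaves and 112 and 12 in leaves of Eq4 and Eq5, which differed much from each other. The interaction was 4.469 (SE 0.64, adjusted p = 0.0263, and 0.492 with Eq6).

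DNAJ had 67, 30 and 56 reads in subtropical flowers and 18 and 12 in flowers of Eq4 and Eq5, against 56, 79 and 64 in subtropical leaves and 0 in leaves of Eq4 and Eq5. The fitted interaction of -8.214 (adjusted p = 0.0374, and 0.298 with Eq6) depends on the prior count, since those leaves had no read. All 4 had been chosen by the study for a difference between sites that used these leaf libraries or stem libraries, so that the direction is not independent of that choice.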

How the results depend on the processing

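The number of DETs between flowers and leaves stayed within 1.5 times of 13151 in all alternatives run, at 10839 without the replicate block (6076 higher and 4763 lower in flowers) and 10364 to 12965 with a tree left out (5881 to 6986 higher, 4483 to 5979 lower). Of the 129 named transcripts, 8 lost the call without the replicate block, 3 in DESeq2 and 10 with all 18 libraries in the fit (adjusted p from 0.0615 for As_41194 MYB111 to 0.210 for As_17319 COBL4), while none did with RLE scaling. The interaction with site had 0 DETs as fitted, 13 without a filter, 196 in DESeq2 and 0 to 132 with a tree left out, and the cause was not tested. Calls between flowers and stems fell to 6086 without St2 (range 6086 to 8276), an alternative chosen after seeing the data, as were the library values without each tree and the equatorial values with Eq6. Signs turned only for transcripts that were not DETs. Without the replicate block and in the exact test, the log2 fold change was 0.0037 and 0.0029 for As_18471 AT1G10720 and 0.016 and 0.019 for As_18420 AT5G56590. With a tree left out it ranged from -0.11 to 0.13 for As_18471 AT1G10720, -0.51 to 0.26 for As_18420 AT5G56590, -0.53 to 0.0050 for As_25244 ATSGS1, -0.36 to 0.24 for As_21267 ZFN1, -0.0896 to 0.38 for As_19213 NAD9, -0.046 to 0.29 for As_19713 EIF4A1 and -0.0891 to 0.37 for As_45261 MYB52.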
